A study of Mus musculus with 47 samples.

Results

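The comparison described here is kidney of female (F) against male (M) mice of the inbred strain C57BL/6J, made from all 16 libraries whose titles name that strain, out of 47 libraries of 3 strains. The groups were C57BL/6J F on 10% fat + fiber (4 libraries), C57BL/6J F on 44% fat + fiber (4), C57BL/6J M on 10% fat + fiber (4) and C57BL/6J M on 44% fat + fiber (4). The F libraries therefore numbered 8 and the M libraries 8, and each sex difference is the mean of the differences on the 2 diets. All of these mice were labelled wild type with no treatment besides diet. Feeding of these diets began when mice were 6 weeks old, and kidneys were collected at 15 weeks. CAST/EiJ (15 libraries) and NZO/HlLtJ (16 libraries), on the same diets and at the same ages, are used only to show where C57BL/6J differed. Polyadenylated RNA was sequenced from homogenized tissue, which the labels call metanephros and the series title kidney. The labels do not say that each library came from a separate animal, so the spread behind each p-value may be technical in part. Of 18786 genes tested, the 18195 on chromosomes 1 to 19 are counted and named.

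The mouse kidney is known for large sex differences, most of them in the proximal tubule, the segment after the glomerulus that reclaims filtered solutes and secretes organic ions and drugs. Uptake carriers of the SLC22 and SLCO families sit mainly on the blood side of its cells or on the brush border, efflux pumps carry conjugates out, and cytochrome P450, glucuronosyl-, glutathione and acyl transferases modify the compounds in between. Testosterone, acting through the androgen receptor, is known to induce a set of mouse proximal tubule genes, and prolactin and growth hormone are known to act on this tissue too. The last and deepest part of the proximal tubule, S3, is where many sex-dependent genes of the rodent kidney are known to be expressed.

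Sex differences were widespread. By edgeR's quasi-likelihood test at a Benjamini-Hochberg adjusted p under 0.05, 8708 of 18195 autosomal genes (47.9%) were called, 4550 (25%) higher and 4158 (22.9%) lower in F. Most of these differences were small. Genes called and at least 2-fold different numbered 1078 (5.92%), 628 (3.45%) higher and 450 (2.47%) lower in F. In 4127 genes (22.7%) the 8 F and 8 M libraries did not overlap in CPM (counts scaled to a common library size by TMM), with F above M in 1910 (10.5%) and F below M in 2217 (12.2%). The median log2 fold change over all autosomal genes was 0.05. These shares are the background for every list below. CPM values are given as the lowest, the highest and the median of 8 libraries, and log2 fold changes as F over M from the fit.

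Libraries held 42420345 to 58433712 counts in F and 34394546 to 50761781 in M, and mitochondrial genes took 12.4% to 14.9% of them in F and 13.1% to 15.5% in M. The TMM scaling factors did not overlap, at 1.02 to 1.1 in F and 0.934 to 0.96 in M. Kap, an abundant androgen-regulated kidney gene, alone took 0.428% to 0.657% of the counts in F and 1.42% to 1.75% in M. Xist lay at 1170 CPM or more in F and 0.702 CPM or less in M, and the Y-linked Ddx3y at 0.0401 CPM or less in F and 59.7 CPM or more in M, as the sex labels say. Replicate 1 of F on 44% fat and replicate 3 of M on 44% fat stood farthest from the other libraries of their sex, with an isolated value in 2.42% and 1.6% of 12317 genes examined. With both left out, a setting chosen after seeing the data, 8024 genes were called, 4149 higher and 3875 lower in F. Sample ID numbers in the titles form 3 series, 77, 81 and 89, with 2, 4 and 2 F and 2, 2 and 4 M libraries, and the fit holds a term for them. The labels do not say what these series are. Of the called genes, 98.8% had the same sign within series 77, 99.1% within series 81 and 99.8% within series 89. Each series is part of the libraries from which these genes were called, so such agreement is favoured and is not independent.

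The genes furthest apart, among called genes with an average log2 CPM of at least 1 over all 47 libraries, included transporters, P450 enzymes and glucuronosyltransferases. Of the 15 highest and 15 lowest log2 fold changes, 8 belonged to SLC, SLCO, ABC or P-type ATPase transporter genes and 7 to Cyp or Ugt genes. The share of such genes among all that could have been picked was not counted. In 29 of these 30 genes the F and M libraries did not overlap, the exception being Ankrd31, but genes were picked for the size of that difference.

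**Figure D1:**
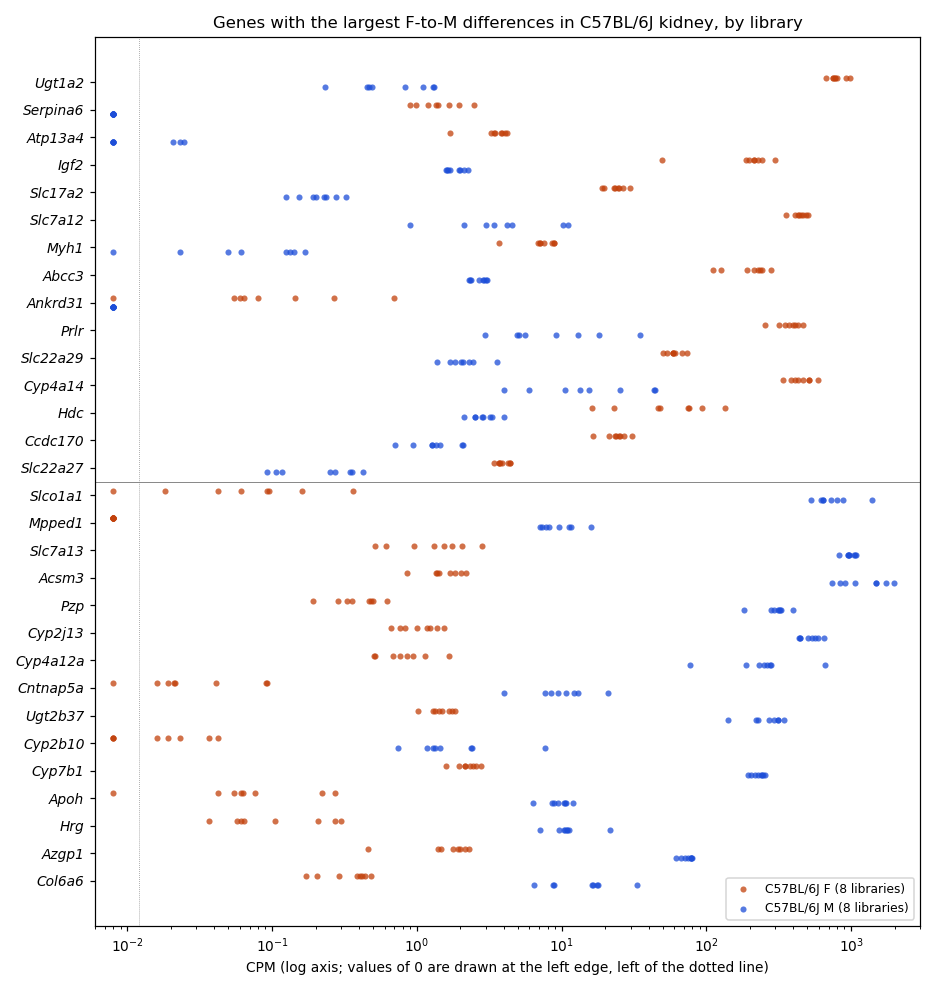
CPM on a log axis in each C57BL/6J library, F in orange and M in blue, for the 15 genes with the highest and the 15 with the lowest log2 fold change. Each point is 1 library and values of 0 are drawn left of the dotted line. F and M points are apart in every gene but Ankrd31, by over 100-fold in genes such as Ugt1a2 and Slco1a1.

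Among genes lower in F, Slco1a1 led. It encodes a sodium-independent uptake carrier for organic anions such as steroid conjugates (ENSMUSG00000041698, chromosome 6, 141907282 to 141946962, GRCm38, as are all coordinates here). It lay at 0 to 0.361 CPM (median 0.0768) in F and 527 to 1395 CPM (median 684) in M, with 43 counts over the 8 F libraries (log2 fold change -13.06, SE 0.36, adjusted p 1.2e-25). The gene was at or near 0 in every F library and the highest M value, in replicate 3 of M on 44% fat, stood apart. Without that library and replicate 1 of F on 44% fat the log2 fold change was -12.82. Slc7a13, the aspartate, glutamate and cystine carrier of the S3 brush border (ENSMUSG00000041052, chromosome 4, 19818725 to 19842218), lay at 0.511 to 2.82 CPM (median 1.42) in F and 820.0 to 1079 CPM (median 966) in M (log2 fold change -9.62, SE 0.17, adjusted p 9.6e-33). Acsm3, a mitochondrial medium-chain acyl-CoA synthetase (ENSMUSG00000030935, chromosome 7, 119760923 to 119787513), lay at 0.853 to 2.19 CPM (median 1.57) in F and 733 to 1966 CPM (median 1269) in M (log2 fold change -9.57, SE 0.26, adjusted p 7.6e-26). All 3 stood at 527 CPM or more in every M library and stayed under 3 CPM in every F library.

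Pzp, a protease inhibitor of the alpha-2-macroglobulin family, lay at 0.192 to 0.621 CPM (median 0.413) in F and 181 to 395 CPM (median 316) in M (log2 fold change -9.53). Cyp2j13, of a P450 family known for epoxygenation of fatty acids, lay at 0.661 to 1.53 CPM (median 1.09) in F and 439 to 654 CPM (median 519) in M (log2 fold change -8.95), and Cyp4a12a, the mouse enzyme that hydroxylates arachidonic acid to 20-HETE, at 0.506 to 1.66 CPM (median 0.809) in F and 76.7 to 663 CPM (median 257) in M (log2 fold change -8.22). Ugt2b37, a glucuronosyltransferase, lay at 1.02 to 1.85 CPM (median 1.46) in F and 142 to 346 CPM (median 282) in M (log2 fold change -7.54). The oxysterol 7-alpha-hydroxylase gene Cyp7b1 lay at 1.604 to 2.77 CPM (median 2.24) in F and 195 to 254 CPM (median 233) in M (log2 fold change -6.70). In each of these 5 genes the M libraries were all well above the F libraries. Mpped1, of a metallophosphoesterase family, had no count in any F library and 7.13 to 15.97 CPM (median 8.90) in M, which is at least 1360-fold lower in F against a floor of 3 counts over the F group. Cntnap5a, Cyp2b10, Apoh, Hrg, Azgp1 and Col6a6 completed the list, with log2 fold changes from -7.93 for Cntnap5a to -5.44 for Col6a6. Apoh and Hrg encode plasma proteins known to be made by liver. The median of Apoh was 0.0623 CPM in F and 9.94 CPM in M, and that of Hrg was 0.0847 CPM in F and 10.7 CPM in M.

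Among genes higher in F, the glucuronosyltransferase gene Ugt1a2 led (ENSMUSG00000090171, chromosome 1, 88200601 to 88218997), at 669.9 to 985 CPM (median 779) in F and 0.233 to 1.31 CPM (median 0.661) in M (log2 fold change 10.07, SE 0.30, adjusted p 1.8e-24). Genes of the Ugt1a cluster share their last exons, and 65.1% of the 31-base words of the Ugt1a2 transcripts also occur in other genes, so reads could be split among them. Serpina6, which encodes corticosteroid-binding globulin, lay at 0.894 to 2.48 CPM (median 1.39) in F and had no count in M, at least 171-fold higher in F against 3 counts over the M group. Atp13a4, a P5-type ATPase gene, had 1425 counts over the F and 3 over the M libraries, a ratio of scaled counts of 397 with an exact 95% interval of 136 to 1928 for counting error only. Igf2, the growth factor gene, lay at 49.8 to 299.9 CPM (median 213) in F and 1.59 to 2.27 CPM (median 1.82) in M (log2 fold change 6.80, SE 0.23, adjusted p 2.9e-23). Its lowest F value was in replicate 1 of F on 44% fat, and without both libraries named above the log2 fold change was 7.01. For Igf2, 61.9% of the 31-base words also occur in other annotated genes, so its counts too could be split. Slc17a2, of the SLC17 family of phosphate and organic anion carriers, lay at 19.01 to 29.5 CPM (median 24.1) in F and 0.125 to 0.323 CPM (median 0.214) in M (log2 fold change 6.74).

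Prlr, the prolactin receptor (ENSMUSG00000005268, chromosome 15, 10177238 to 10349180), lay at 254 to 463 CPM (median 383) in F and 2.95 to 34.6 CPM (median 7.38) in M (log2 fold change 5.03, SE 0.29, adjusted p 1.9e-16). Its M libraries spread widely while the F libraries lay close together. Slc7a12, an amino acid carrier gene of the SLC7 family, lay at 356 to 507 CPM (median 443) in F and 0.891 to 11.2 CPM (median 3.80) in M (log2 fold change 6.47). Abcc3, the efflux pump MRP3 for glucuronides and bile salts, lay at 111 to 281 CPM (median 219.7) in F and 2.28 to 3.08 CPM (median 2.78) in M (log2 fold change 6.24, SE 0.14, adjusted p 8.8e-29). Cyp4a14, a fatty acid omega-hydroxylase known as a target of PPAR-alpha, lay at 339 to 594 CPM (median 447) in F and 3.996 to 44.4 CPM (median 14.5) in M (log2 fold change 4.64, SE 0.36, adjusted p 6.2e-13). In both genes every F library was above every M library. Hdc, the histamine-forming histidine decarboxylase, lay at 16.1 to 135 CPM (median 61.3) in F and 2.12 to 4.0 CPM (median 2.85) in M (log2 fold change 4.38). Myh1, a skeletal muscle myosin gene, reached 8.87 CPM in F and 0.1697 CPM in M, and Ankrd31, a gene known from meiosis, 0.696 CPM in F, with no count in M and 0 in the lowest F library. Ankrd31 passed the level filter through the other strains, since no C57BL/6J library exceeded 0.696 CPM. By edgeR its call was lost on 44% fat alone (adjusted p 0.209) and within series 77, 81 and 89 (adjusted p 0.324, 0.252 and 0.162). Serpina6, Atp13a4 and Cyp2b10 also averaged below that filter over the C57BL/6J libraries and passed it through the other strains. The list ended with Slc22a29, Ccdc170 and Slc22a27, at log2 fold changes of 4.76, 4.16 and 4.10.

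The 11 genes listed as textbook targets of androgen in mouse kidney were all called and all at least 2-fold lower in F, with a median log2 fold change of -5.00, but this list was drawn up with earlier results of these data known. Kap lay at 4185 to 6139 CPM (median 5545) in F and 14990 to 18380 CPM (median 16970) in M (log2 fold change -1.64, SE 0.07, adjusted p 6.0e-22). Odc1, the rate-limiting enzyme of polyamine synthesis, lay at 271 to 345 CPM (median 312) in F and 1026 to 2412 CPM (median 1400) in M (log2 fold change -2.31), and Gusb, beta-glucuronidase, at 21.1 to 26.3 CPM (median 24.7) in F and 41.5 to 147 CPM (median 57.5) in M (log2 fold change -1.33). F libraries lay below M libraries in all 11.

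Transporter genes were called in both directions. Of 325 autosomal SLC and SLCO genes tested, 129 were higher and 90 lower in F, together 67.4% against the 47.9% of all genes, and 14 were at least 2-fold higher and 20 at least 2-fold lower, together 10.5% against 5.92%. Their median log2 fold change was 0.12. The sets below overlap where a gene belongs to more than 1, as Slc7a13 and Slc22a12 do.

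**Figure D2:**
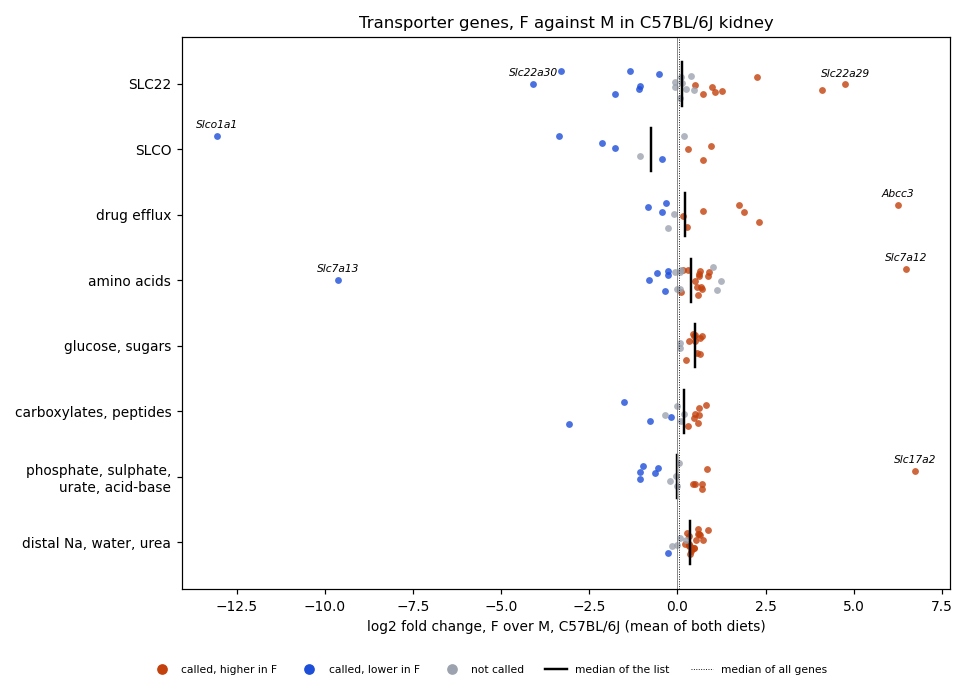
Log2 fold change, F over M, of the members of 8 transporter lists in C57BL/6J. Each point is 1 gene, orange where called higher in F, blue where called lower in F and grey where not called, with the list's median as a bar and the median of all genes, 0.05, as a dotted line. Sugar and distal carriers cluster right of 0, at medians of 0.48 and 0.36, while SLC22 and SLCO carriers spread to both sides.

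The SLC22 family moves organic anions and cations across the basolateral and apical membranes. Of 23 members tested, 8 were higher and 7 lower in F, with 11 past 2-fold (47.8% against 5.92%) and a median of 0.12. The main basolateral organic anion exchanger OAT1, Slc22a6, lay at 305 to 391 CPM (median 349) in F and 842 to 961 CPM (median 855) in M (log2 fold change -1.34, SE 0.07, adjusted p 5.0e-20). Its partner OAT3, Slc22a8, lay at 516 to 628 CPM (median 578) in F and 226 to 347 CPM (median 298) in M (log2 fold change 0.99, SE 0.08, adjusted p 1.6e-13). The 2 OATs of the secretory pathway thus differed in opposite directions, with no overlap between F and M in either. The basolateral cation carrier OCT2, Slc22a2, lay at 147 to 174 CPM (median 159) in F and 309 to 371 CPM (median 335) in M (log2 fold change -1.10), and the apical urate exchanger URAT1, Slc22a12, at 544 to 676 CPM (median 591) in F and 1113 to 1353 CPM (median 1288) in M (log2 fold change -1.08). Slc22a13, known in humans as the urate and nicotinate carrier OAT10, went the other way, at 146 to 193 CPM (median 157) in F and 56.3 to 101 CPM (median 74.6) in M (log2 fold change 1.08). Slc22a19, the apical anion carrier known as OAT5 in rodents, lay at 199 to 275 CPM (median 247) in F and 75.6 to 138 CPM (median 92.2) in M (log2 fold change 1.26), and the prostaglandin carrier Slc22a22 at 36.0 to 43.3 CPM (median 38.4) in F and 117 to 149 CPM (median 128) in M (log2 fold change -1.77).

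Among the rodent SLC22 genes clustered on chromosome 19, close relatives differed in opposite directions between the sexes. Slc22a30 (ENSMUSG00000052562, chromosome 19, 8335371 to 8405111) lay at 18.1 to 25.8 CPM (median 22.2) in F and 331 to 513 CPM (median 371) in M (log2 fold change -4.09, SE 0.14, adjusted p 2.6e-23). Slc22a28 (ENSMUSG00000063590, chromosome 19, 8062209 to 8131982) lay at 20.1 to 34.9 CPM (median 27.8) in F and 239 to 328 CPM (median 259) in M (log2 fold change -3.30, SE 0.13, adjusted p 7.2e-22). Slc22a29 (ENSMUSG00000075044, chromosome 19, 8160165 to 8218900), by contrast, lay at 49.8 to 73.0 CPM (median 58.7) in F and 1.38 to 3.58 CPM (median 2.05) in M (log2 fold change 4.76, SE 0.11, adjusted p 1.3e-30), and Slc22a27 at 3.43 to 4.41 CPM (median 3.83) in F and 0.0923 to 0.428 CPM (median 0.261) in M. These genes share transcript sequence, 68.2% of 31-base words for Slc22a28, 42.9% for Slc22a30, 44.0% for Slc22a29 and 46.9% for Slc22a27, so counts may be split among them and the size of each difference is uncertain.

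Their promoters show how alike the genes are. The 170 bases before the RefSeq start of Slc22a28 (chr19:8131983-8132152), Slc22a30 (chr19:8405106-8405275) and Slc22a29 (chr19:8218901-8219070), all on the minus strand of GRCm38.p6 and written 5′ to 3′, are shown because Slc22a28 and Slc22a30 were lower and Slc22a29 higher in F. Capitals mark bases of Slc22a30 and Slc22a29 that align to a different base, or to none, of the 170 shown bases of Slc22a28. Runs of capitals near the ends had no partner in that stretch. They were not compared with Slc22a28 beyond it.
Slc22a28: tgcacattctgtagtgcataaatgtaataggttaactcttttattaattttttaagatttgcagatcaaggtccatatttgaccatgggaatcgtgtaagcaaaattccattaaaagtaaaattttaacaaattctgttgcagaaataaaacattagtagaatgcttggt
Slc22a30: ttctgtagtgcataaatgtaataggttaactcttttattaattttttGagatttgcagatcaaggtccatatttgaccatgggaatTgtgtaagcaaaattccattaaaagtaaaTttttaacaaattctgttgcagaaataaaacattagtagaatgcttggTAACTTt
Slc22a29: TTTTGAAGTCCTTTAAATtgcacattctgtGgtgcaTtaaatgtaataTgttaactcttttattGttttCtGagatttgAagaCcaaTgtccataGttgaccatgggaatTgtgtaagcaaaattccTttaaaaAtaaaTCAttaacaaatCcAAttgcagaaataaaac
Of the 170 bases shown, 161 of Slc22a30 and 133 of Slc22a29 were the same as in Slc22a28. Over the 250 bases before each start, 238 bases matched between Slc22a28 and Slc22a30, 175 between Slc22a28 and Slc22a29, and 125 between Slc22a28 and Slc22a27. Slc22a27 and Slc22a29, both higher in F, shared 139, fewer than Slc22a28 and Slc22a29, which differed in direction. Gaps were allowed in these alignments, and the least alike pair of this cluster, Slc22a26 and Slc22a29, still matched at 120 bases. No level for unrelated sequence was set. Whether these bases bear on the direction of the sex difference was not tested.

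Of 10 SLCO genes tested, which encode organic anion transporting polypeptides, 3 were higher and 5 lower in F, with 4 lower and 0 higher past 2-fold. Together 80% were called and 40% passed 2-fold, against 47.9% and 5.92% of all genes. Beside Slco1a1, Slco3a1 lay at 50.02 to 68.6 CPM (median 62.6) in F and 242 to 308 CPM (median 261) in M (log2 fold change -2.13) and Slco4c1, a basolateral carrier of digoxin and thyroid hormone, at 7.47 to 23.3 CPM (median 10.8) in F and 34.5 to 55.9 CPM (median 41.5) in M (log2 fold change -1.77). Slco1b2, known from liver, was called lower but lay under 1 CPM in every library of both sexes. Slco2a1, the prostaglandin carrier, was higher in F, at 47.5 to 70.8 CPM (median 61.5) in F and 25.4 to 34.1 CPM (median 32.4) in M (log2 fold change 0.94). Slco1a6, at 322 CPM in F and 302 CPM in M (medians), had a log2 fold change of 0.18 and was not called, though 8 of 29 alternative settings called it.

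Of 12 efflux pump genes, 7 were higher and 3 lower in F, together 83.3% against 47.9% of all genes. The 4 past 2-fold, Abcc3, Abcb1b, Abcc4 and Abcb1a, were all higher in F. Abcb1b and Abcb1a encode the P-glycoproteins, which expel many lipophilic drugs. Abcb1b lay at 26.0 to 37.6 CPM (median 30.6) in F and 3.39 to 11.1 CPM (median 5.50) in M (log2 fold change 2.31, SE 0.19). Abcb1a lay at 14.1 to 20.7 CPM (median 17.1) in F and 2.08 to 7.70 CPM (median 4.80) in M (log2 fold change 1.75, SE 0.16). The apical pump MRP4, Abcc4, lay at 121 to 237 CPM (median 154) in F and 34.2 to 57.1 CPM (median 43.8) in M (log2 fold change 1.88, SE 0.15, adjusted p 3.9e-13). F and M did not overlap in any of the 4. The pumps lower in F differed less. Slc47a1, the proton antiporter MATE1 that excretes organic cations, lay at 316 to 369.9 CPM (median 337) in F and 557 to 628 CPM (median 596) in M (log2 fold change -0.83), and the apical pumps MRP2 (Abcc2) and BCRP (Abcg2) had log2 fold changes of -0.45 and -0.31.

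Of amino acid and sugar carrier genes, 50% and 83.3% were higher in F, against 25% of all genes. Lower in F were 21.4% and 0%, against 22.9%. Of 28 amino acid transporters, 14 were higher and 6 lower in F, with a median of 0.39 that ranged from 0.12 to 0.42 over alternative settings, and of 12 sugar carrier genes 10 were higher and 0 lower, with a median of 0.48. In these 2 lists Slc7a12 and Slc7a13 were the members past 2-fold. The basolateral light chain LAT2, Slc7a8, lay at 371 to 421 CPM (median 379) in F and 179.7 to 242 CPM (median 209.7) in M (log2 fold change 0.88). The light chain y+LAT1, Slc7a7, which releases cationic amino acids, lay at 147 to 199 CPM (median 182) in F and 100.3 to 139 CPM (median 111) in M (log2 fold change 0.64). Slc6a18, an apical carrier of neutral amino acids, lay at 807 to 1060 CPM (median 925) in F and 512 to 659.5 CPM (median 560.1) in M (log2 fold change 0.68). Slc7a9 and Slc3a1, the light and heavy subunits of the cystine carrier, had log2 fold changes of 0.49 and 0.09. The call of Slc3a1 (adjusted p 0.0331) was lost in 17 of 29 alternative settings. Slc1a4 and Slc1a1, carriers of neutral and acidic amino acids, were lower in F, at log2 fold changes of -0.80 and -0.28.

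SGLT2 and GLUT2, which carry most glucose in the early proximal tubule, were not called. Slc5a2 lay at 375 to 416 CPM (median 388) in F and 341 to 421 CPM (median 367) in M (log2 fold change 0.07, adjusted p 0.271), and Slc2a2 at 214 to 356 CPM (median 254) in F and 206 to 278 CPM (median 253) in M (log2 fold change 0.08, adjusted p 0.463). F and M overlapped in both. Slc5a1, the high affinity SGLT1 of the late proximal tubule, was higher in F, at 114 to 178 CPM (median 128) in F and 75.7 to 98.7 CPM (median 84.7) in M (log2 fold change 0.64, SE 0.07, adjusted p 1.7e-09). The mannose and fructose carriers Slc5a10 and Slc2a5 were also higher in F, with overlap between the sexes, Slc5a10 at a median of 279 CPM in F and 185 CPM in M and Slc2a5 at a median of 88.9 CPM in F and 61.5 CPM in M. By edgeR the call of Slc2a5 was lost within series 77, 81 and 89 (adjusted p 0.148, 0.0807 and 0.382).

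Carriers of carboxylates, phosphate and urate were mixed. Slc5a8, the sodium-coupled lactate and monocarboxylate carrier, lay at 188 to 279.9 CPM (median 223) in F and 589.8 to 758 CPM (median 637) in M (log2 fold change -1.52, SE 0.07, adjusted p 5.5e-21), and the citrate carrier Slc13a5, under 2 CPM in every library of both sexes, had a log2 fold change of -3.07. The main phosphate carrier NaPi-2a, Slc34a1, lay at 3270 to 3556 CPM (median 3411) in F and 4754 to 5342 CPM (median 4913) in M (log2 fold change -0.55, SE 0.05, adjusted p 3.1e-12), while NaPi-2c, Slc34a3, was higher in F at 41.6 to 50.3 CPM (median 43.0) in F and 27.1 to 38.2 CPM (median 31.7) in M (log2 fold change 0.49). The urate and phosphate carriers Slc17a1 and Slc17a3 were lower in F, at log2 fold changes of -0.98 and -1.07, in contrast to their neighbour in the family, Slc17a2. The sulphate carrier Slc13a1 was higher in F, at 0.45, with overlapping groups. Its value was 0.26 without replicate 1 of F on 44% fat and 0.25 without both libraries that stand apart, and by edgeR it was not called with C57BL/6J libraries alone (adjusted p 0.086), on 10% fat alone (0.22, adjusted p 0.333) or within series 81 (0.084, adjusted p 0.787) and 89 (0.38, adjusted p 0.0623). Of 15 carboxylate and peptide carriers 7 were higher and 4 lower in F, and of 15 phosphate, sulphate, urate and acid-base carriers 6 were higher and 5 lower, with medians of 0.17 and -0.00262. In each list 73.3% were called, against 47.9% of all genes.

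Drug and steroid metabolizing enzymes followed. Of 46 genes of P450 families 1 to 4 that were tested, 14 were higher and 15 lower in F, 63.0% against 47.9% of all genes, and 4 and 10 of them passed 2-fold, 30.4% against 5.92%. Their median was 0.01, and their summed level was 2901 to 3672 CPM in F and 8388 to 10410 CPM in M. Cyp4b1, which activates pneumotoxins and pro-carcinogens in mouse kidney, lay at 62.9 to 137 CPM (median 106) in F and 2810 to 3965 CPM (median 3441) in M (log2 fold change -5.00, SE 0.20, adjusted p 4.9e-21). Cyp2e1, the ethanol, chloroform and paracetamol oxidizing P450, lay at 44.9 to 87.4 CPM (median 66.9) in F and 1580 to 2026 CPM (median 1826) in M (log2 fold change -4.82, SE 0.14, adjusted p 4.6e-26). Cyp2d9, known as a male-specific steroid hydroxylase of mouse liver, lay at 2.37 to 23.5 CPM (median 5.99) in F and 86.2 to 142 CPM (median 102) in M (log2 fold change -3.94). In all 3 the lowest M library was above the highest F library. Cyp2j5, an epoxygenase abundant in kidney, differed less, at 988 to 1143 CPM (median 1021) in F and 1698 to 1896 CPM (median 1817) in M (log2 fold change -0.82).

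Beside Cyp4a14, the P450 genes past 2-fold higher in F were Cyp4f14, Cyp2d26 and Cyp2c44. Cyp4f14, of a family that hydroxylates leukotriene B4, lay at 3.995 to 5.90 CPM (median 4.94) in F and 0.785 to 1.43 CPM (median 1.04) in M (log2 fold change 2.21), and Cyp2d26 at 246 to 303 CPM (median 256.2) in F and 65.9 to 97.7 CPM (median 86.5) in M (log2 fold change 1.64). Cyp2c44, an arachidonic acid epoxygenase, lay at 37.0 to 64.6 CPM (median 43.6) in F and 9.71 to 25.3 CPM (median 17.4) in M (log2 fold change 1.33). Members of the Cyp4 family therefore stood at both ends, with Cyp4a12a, Cyp4a12b, Cyp4b1 and Cyp4f15 lower in F. Cyp4a12a and Cyp4a12b share 62.2% and 62.9% of their 31-base words with other genes. Of 10 other P450 genes tested, 2 were higher and 2 lower in F, Cyp7b1 among the lower ones, together 40% against 47.9% of all genes.

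**Figure D3:**
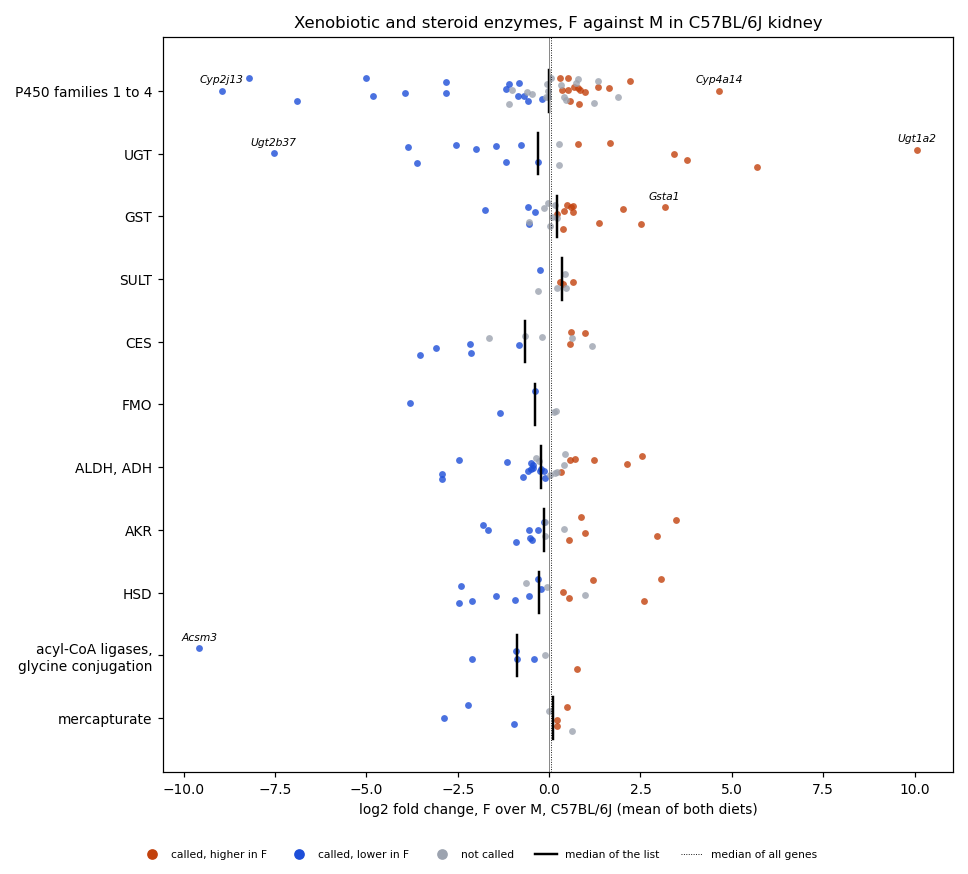
Log2 fold change, F over M, of the members of 11 enzyme lists in C57BL/6J, with points, bars and lines as in the plot of transporters. The P450, UGT and GST lists spread to both sides of 0, and the acyl-CoA ligase and carboxylesterase medians, -0.88 and -0.66, lie left of it.

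Glucuronosyltransferases differed between the sexes in 15 of 17 genes tested, 6 higher and 9 lower in F, and 5 and 7 passed 2-fold, 70.6% against 5.92%. Both directions occurred within the Ugt1a and the Ugt2b cluster. In the Ugt1a cluster, Ugt1a2, Ugt1a1, Ugt1a10, Ugt1a9 and Ugt1a6a were higher in F and Ugt1a6b and Ugt1a7c lower. Ugt1a1, the bilirubin-conjugating enzyme, lay at 6.59 to 14.8 CPM (median 8.70) in F and 0.627 to 1.15 CPM (median 0.856) in M (log2 fold change 3.41, SE 0.18, adjusted p 2.9e-19), Ugt1a10 at 7.23 to 17.8 CPM (median 12.4) in F and 0.445 to 1.42 CPM (median 0.738) in M (log2 fold change 3.78), and Ugt1a7c at 101 to 161 CPM (median 128) in F and 334 to 386 CPM (median 362) in M (log2 fold change -1.46). Ugt1a9 had 137 counts over F and 2 over M. From 58.5% of the words of Ugt1a1 to 84.2% of those of Ugt1a6b occur in other genes. In the Ugt2b cluster, Ugt2b38 lay at 105 to 130.2 CPM (median 113) in F and 1180 to 1681 CPM (median 1321) in M (log2 fold change -3.60, SE 0.11, adjusted p 5.4e-26), below M like Ugt2b37 and Ugt2b5, whereas Ugt2b34 lay at 71.3 to 108 CPM (median 89.2) in F and 24.2 to 30.7 CPM (median 27.7) in M (log2 fold change 1.68, SE 0.10, adjusted p 8.4e-17). Of the words of Ugt2b37, Ugt2b38 and Ugt2b5, 34.4%, 52.9% and 56.4% occur in other genes, so their reads may be split too. Over the 250 bases before each start, Ugt2b37 and Ugt2b38 shared 224 bases and Ugt2b5 and Ugt2b38 212, while Ugt2b34 shared 133 with Ugt2b37 and 137 with Ugt2b38. Whether these matches bear on the direction of the sex difference was not tested. Ugt8a, which makes galactosylceramide, lay at 9.34 to 12.6 CPM (median 11.4) in F and 120.4 to 187 CPM (median 165) in M (log2 fold change -3.86).

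Of 22 glutathione S-transferase genes tested, 11 (50%) were higher and 4 (18.2%) lower in F, against 25% and 22.9% of all genes. Their median was 0.23. Gsta2 lay at 384 to 503 CPM (median 425) in F and 53.9 to 136 CPM (median 112) in M (log2 fold change 2.03, SE 0.19, adjusted p 7.6e-11), Gsta4, which conjugates the lipid aldehyde hydroxynonenal, at 57.3 to 97.9 CPM (median 70.1) in F and 11.8 to 16.8 CPM (median 11.99) in M (log2 fold change 2.51, SE 0.13, adjusted p 3.5e-18), and Gsto1, a thiol transferase, at 44.7 to 55.6 CPM (median 49.3) in F and 15.7 to 24.3 CPM (median 18.5) in M (log2 fold change 1.37). Gstp1 and Gstp2 were lower in F, at log2 fold changes of -0.57 and -1.76. Gsta1, Gsta2, Gstp1 and Gstp2 share 92.9%, 60.7%, 38.5% and 60.3% of their words with other genes, so reads may be split between them. Of the later steps that turn glutathione conjugates into mercapturates, gamma-glutamyltransferase (Ggt1) lay at 509.7 to 598 CPM (median 535) in F and 943 to 1210 CPM (median 1046) in M, the N-acetyltransferase gene Nat8 at 13.1 to 21.95 CPM (median 16.8) in F and 96.8 to 132 CPM (median 115) in M, and the deacylase gene Acy3 at 255.7 to 330.1 CPM (median 277) in F and 1204 to 1494 CPM (median 1329) in M. All 3 were lower in F, at log2 fold changes of -0.97, -2.87 and -2.21, and 3 of the 8 genes of that list were higher in F. Of that list 75% were called, against 47.9% of all genes.

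Of carboxylesterase, flavin monooxygenase, and aldehyde and alcohol dehydrogenase genes, 38.5%, 60% and 51.9% were lower in F, against 22.9% of all genes. Higher in F were 23.1%, 0% and 22.2%, against 25%. These lists are small and were not tested against all genes. Of 13 carboxylesterase genes 3 were higher and 5 lower in F (median -0.66), all 4 past 2-fold being lower. Ces1f lay at 62.7 to 90.1 CPM (median 82.8) in F and 834 to 985 CPM (median 885) in M (log2 fold change -3.52, SE 0.11, adjusted p 7.6e-26) and Ces2c at 64.7 to 121 CPM (median 83.1) in F and 348 to 446 CPM (median 382) in M (log2 fold change -2.13). Of the words of Ces2c, 50.1% occur in other genes. Of 5 flavin monooxygenase genes 3 were lower and 0 higher in F, led by Fmo5 at 11.98 to 14.6 CPM (median 13.2) in F and 153 to 240.1 CPM (median 181) in M (log2 fold change -3.82, SE 0.14, adjusted p 7.4e-23). Fmo1, the main form known from kidney, was not called (log2 fold change 0.13). Of 27 aldehyde and alcohol dehydrogenase genes 6 were higher and 14 lower in F. Adh1, the classical ethanol and retinol dehydrogenase, lay at 70.3 to 79.4 CPM (median 71.5) in F and 437 to 694 CPM (median 502) in M (log2 fold change -2.92, SE 0.12, adjusted p 3.0e-21), whereas the retinaldehyde dehydrogenase Aldh1a2 lay at 8.78 to 14.4 CPM (median 11.9) in F and 2.10 to 3.36 CPM (median 2.58) in M (log2 fold change 2.14, SE 0.11, adjusted p 3.8e-20).

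Acyl-CoA ligases of the ACSM family and the glycine acyltransferases, which conjugate benzoate and salicylate, were lower in F in 5 of 7 genes and higher in 1, with a median of -0.88 and a summed level of 3057 to 3532 CPM in F and 8476 to 10780 CPM in M. Of this list 85.7% were called, against 47.9% of all genes. Beside Acsm3, Acsm2 lay at 1263 to 1480 CPM (median 1416) in F and 5302 to 6303 CPM (median 5938) in M (log2 fold change -2.10, SE 0.08, adjusted p 6.0e-25), and Glyat had a log2 fold change of -0.90. The member higher in F was Acsm1, at 247 to 306 CPM (median 285) in F and 137 to 201 CPM (median 157) in M (log2 fold change 0.77). Of 8 sulfotransferase genes 3 were higher and 1 lower in F, none past 2-fold, and 0 to 3 were called higher over the alternative settings. Together 50% were called, near the 47.9% of all genes.

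Steroid metabolizing enzymes went both ways. Of 16 hydroxysteroid dehydrogenase genes 5 were higher and 8 lower in F, with 7 past 2-fold. Of this list 81.2% were called and 43.8% passed 2-fold, against 47.9% and 5.92% of all genes. Hsd17b11 lay at 58.5 to 63.1 CPM (median 59.4) in F and 252 to 463 CPM (median 307) in M (log2 fold change -2.47, SE 0.13, adjusted p 3.6e-18), Hsd17b2, which oxidizes estradiol and testosterone, at 1.58 to 3.35 CPM (median 2.57) in F and 10.99 to 14.3 CPM (median 12.6) in M (log2 fold change -2.40), and Hsd11b1, which regenerates active glucocorticoid, at 40.3 to 49.5 CPM (median 45.3) in F and 126 to 343 CPM (median 192) in M (log2 fold change -2.12). Hsd11b2, which inactivates glucocorticoid in the collecting duct, was higher in F, at 94.6 to 117 CPM (median 98.5) in F and 68.0 to 84.8 CPM (median 76.3) in M (log2 fold change 0.38). Hsd17b14 and Hsd3b4 were higher in F by log2 fold changes of 2.59 and 1.19, but 100% of the 31-base words of Hsd3b4 occur in other genes, so that its counts cannot be told apart from those of its relatives. Of 16 aldo-keto reductase genes 5 were higher and 8 lower in F, together 81.2% against 47.9% of all genes. Akr1c18, which inactivates progesterone, lay at 49.5 to 274 CPM (median 164) in F and 9.90 to 17.8 CPM (median 13.9) in M (log2 fold change 3.47, SE 0.23, adjusted p 4.6e-15), and Akr1c14, a reductase of dihydrosteroids, at 62.9 to 142 CPM (median 115) in F and 259.6 to 459 CPM (median 321) in M (log2 fold change -1.66).

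Hormone receptors and their regulators were called in 15 of 24 genes (62.5% against 47.9% of all genes), 9 higher and 6 lower in F. Their median was -0.03. Besides Prlr, Socs2, a feedback inhibitor induced by growth hormone and prolactin through STAT5, lay at 27.7 to 67.6 CPM (median 50.9) in F and 5.11 to 18.99 CPM (median 8.88) in M (log2 fold change 2.22, SE 0.22, adjusted p 1.1e-10). Nr1i2, which encodes the xenobiotic sensor PXR, was higher in F, at 7.64 to 10.4 CPM (median 8.55) in F and 2.87 to 4.05 CPM (median 3.46) in M (log2 fold change 1.29, SE 0.09, adjusted p 4.4e-16). Esr1, estrogen receptor alpha, was lower in F, at 7.97 to 12.6 CPM (median 9.13) in F and 21.4 to 31.1 CPM (median 26.3) in M (log2 fold change -1.51, SE 0.09, adjusted p 9.4e-18), as was the bile acid receptor gene Nr1h4, at 49.9 to 71.3 CPM (median 60.9) in F and 81.1 to 179 CPM (median 147) in M (log2 fold change -1.15). Igf1 was higher in F at 17.3 to 20.7 CPM (median 18.1) in F and 9.94 to 13.8 CPM (median 11.4) in M (log2 fold change 0.72). The androgen receptor gene is on the X chromosome and not described here.

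Promoters from RefSeq, 250 bases before to 50 after the start, were matched for 22 of the 30 leading genes. The androgen receptor core hexamer AGAACA, on either strand, occurred in 7 of them, of which 4 were higher (Hdc, Igf2, Prlr and Ugt1a2) and 3 lower in F (Apoh, Azgp1 and Pzp), while 18.97% of all 32851 promoters hold it. The STAT5 site TTCNNNGAA occurred in Prlr and Slc17a2, and in 8.3% of all promoters. The full androgen receptor site, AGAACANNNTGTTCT, which contains the hexamer, occurred in none of the 22 and in 0.00913% of all. These are letter matches in a short window. The leading genes were counted per gene and the background per promoter entry, and a gene can have several entries. The counts and the percentages are therefore unlike measures and cannot be compared directly. Whether the sites are more frequent in the leading genes was not tested.

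Marker genes of the nephron segments were checked to see what the tissue held. Markers of podocytes, every tubule segment, endothelium and stroma were present, and markers of adrenal cortex were low, with 2 of 4 autosomal genes in the table passing the count filter, at a summed level of 2.35 to 3.35 CPM in F and 1.92 to 2.71 CPM in M. Whole-kidney RNA cannot tell apart fewer cells of a type and less RNA per cell. Markers outside the proximal tubule were mostly higher in F, by small amounts. All 8 podocyte markers, 6 of 8 thin limb, 9 of 10 thick ascending limb, 7 of 10 distal convoluted tubule, 7 of 9 principal cell and all 10 intercalated cell markers were higher in F, against 25% of all genes. Lower in F was 1 of these markers, Cldn10 of the thick ascending limb (log2 fold change -0.23). Cldn10 was not called on 44% fat alone or within series 77. The medians were 0.50, 0.47, 0.40, 0.40, 0.36 and 0.42 in that order, against 0.05 for all genes, and none of these markers passed 2-fold. Summed podocyte markers ran 526 to 576 CPM in F and 367 to 443 CPM in M, and summed thick ascending limb markers 7484 to 9642 CPM in F and 6053 to 7417 CPM in M. Summed distal convoluted tubule, principal cell and intercalated cell markers did not overlap either. Summed thin limb markers overlapped, at 869.3 to 954 CPM (median 910.7) in F and 827.2 to 929.3 CPM (median 907.8) in M.

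**Figure D4:**
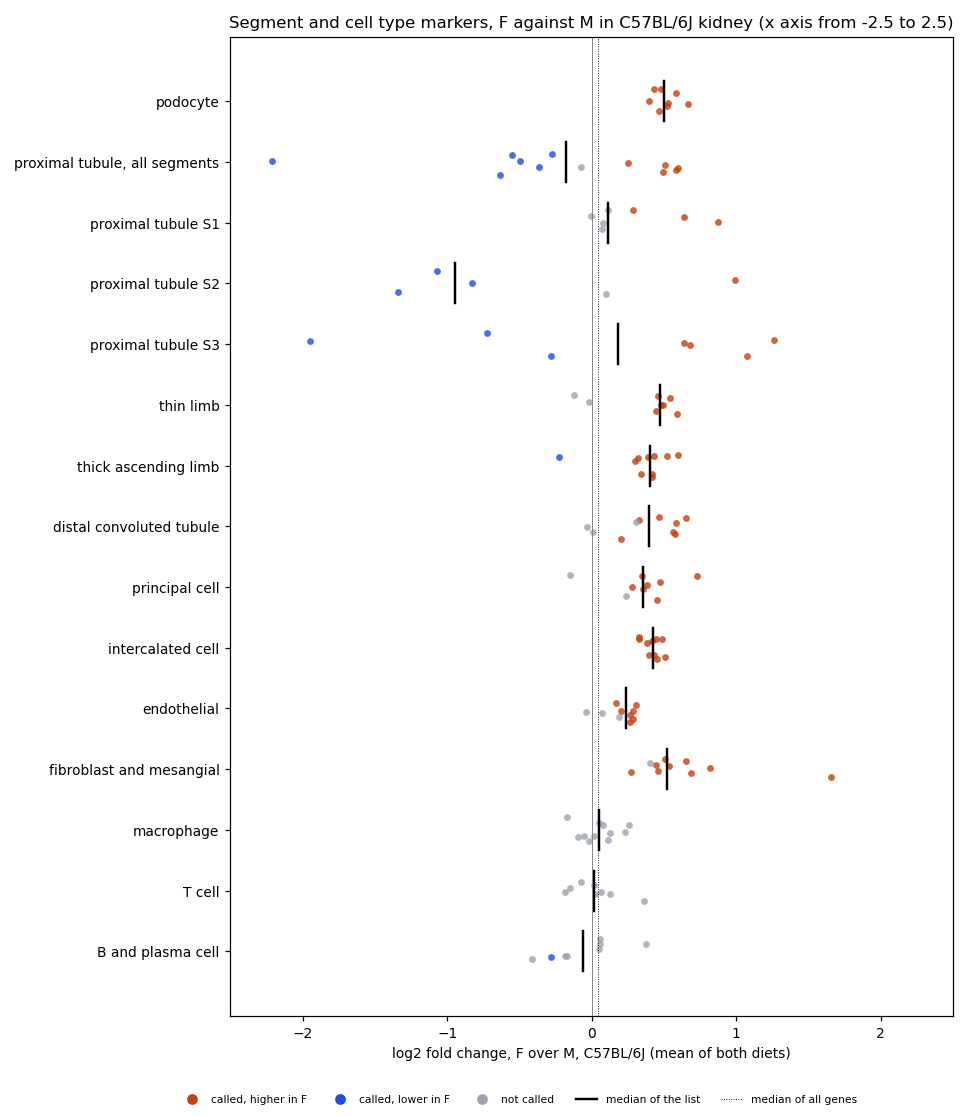
Log2 fold change, F over M, of marker genes of 15 segments and cell types in C57BL/6J, with points, bars and lines as in the plot of transporters. The axis ends at -2.5 and 2.5, so that Cyp4b1 (S2, -5.00) and Slc7a13 (S3, -9.62) lie outside it. Podocyte and intercalated cell markers are all right of 0, while proximal tubule markers lie on both sides.

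The size of these differences is shown by single genes. Nphs1, nephrin of the slit diaphragm, lay at 29.6 to 34.2 CPM (median 32.2) in F and 17.8 to 24.3 CPM (median 21.2) in M (log2 fold change 0.58, SE 0.06, adjusted p 2.0e-11). Umod, uromodulin of the thick ascending limb, lay at 2712 to 4040 CPM (median 3589) in F and 2294 to 3100 CPM (median 2576) in M (log2 fold change 0.42, SE 0.05, adjusted p 7.0e-09), and Slc12a1, the furosemide-sensitive NKCC2, at 1514 to 1872 CPM (median 1766) in F and 1216 to 1520 CPM (median 1386) in M (log2 fold change 0.32, SE 0.07, adjusted p 1.8e-04), with overlap in both. Slc12a3, the thiazide-sensitive NCC of the distal convoluted tubule, lay at 884 to 1102 CPM (median 977) in F and 593 to 722 CPM (median 655) in M (log2 fold change 0.58, SE 0.05, adjusted p 3.3e-12), without overlap. Scnn1a, the alpha subunit of the epithelial sodium channel, lay at 118 to 129 CPM (median 124) in F and 88.5 to 105 CPM (median 94.7) in M (log2 fold change 0.35), and Slc4a1, the anion exchanger of acid-secreting intercalated cells, at 56.1 to 68.5 CPM (median 61.0) in F and 42.6 to 49.4 CPM (median 46.7) in M (log2 fold change 0.42). The water channel genes Aqp2 and Aqp3 of principal cells were not called, at log2 fold changes of 0.24 (adjusted p 0.221) and -0.15 (adjusted p 0.0822). By edgeR Aqp3 was called lower in F with C57BL/6J libraries alone (adjusted p 0.021) and within series 89 (adjusted p 0.0256). It was also called lower without replicate 1 of F on 10% fat, and by limma-voom with sample quality weights. Of 23 genes of distal sodium, water and urea transport, 18 were higher and 1 lower in F, with a median of 0.36 that ranged from 0.34 to 0.42 over alternative settings. The kinase gene Sgk1, induced by aldosterone and glucocorticoid, had the largest of these differences, 0.87, with overlapping groups (adjusted p 0.0224). By edgeR the Sgk1 call was lost on 10% and on 44% fat alone (adjusted p 0.169 and 0.0983). It was also lost within series 77 and 81 (adjusted p 0.602 and 0.0896).

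Proximal tubule markers did not shift one way. Of 12 markers of the whole proximal tubule 5 were higher and 6 lower in F (median -0.17), and their summed level overlapped, at 24420 to 28320 CPM in F and 24690 to 27440 CPM in M. The endocytic receptors megalin and cubilin, Lrp2 and Cubn, were higher in F, Lrp2 at 7098 to 9470 CPM (median 8224) in F and 5282 to 6467 CPM (median 5744) in M (log2 fold change 0.50, SE 0.06, adjusted p 1.4e-08) and Cubn with a log2 fold change of 0.60. Slc34a1 and the fatty acid carrier Slc27a2 were lower in F, at -0.55 and -0.63. Of 7 markers of S1, the first part, 3 were higher and 0 lower (median 0.11). Of 6 markers of S2, 1 was higher and 4 lower (median -0.95), and of 8 markers of S3, 4 were higher and 4 lower (median 0.18). Called were 91.7%, 42.9%, 83.3% and 100% of the whole-tubule, S1, S2 and S3 lists, against 47.9% of all genes. Atp11a, a phospholipid flippase marking S3, lay at 712 to 995 CPM (median 783) in F and 2558 to 3602 CPM (median 2973) in M (log2 fold change -1.95), opposite to the S3 markers Slc5a1, Slc6a18, Slc22a13 and Slc22a19. Summed S2 markers lay at 2186 to 2673 CPM in F and 6027 to 7304 CPM in M, and summed S3 markers at 2521 to 3141 CPM in F and 5122 to 6055 CPM in M. Most of the S2 gap came from Cyp4b1, and the S3 gap came from Atp11a and Slc7a13. These sums therefore do not describe the other markers of the 2 lists. Within S3 the markers thus disagreed in direction, and Slc22a6, Cyp4b1 and Slc7a13 of these lists are among the genes described above.

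Of stromal and blood cell markers, 7 of 10 endothelial and 9 of 10 fibroblast and mesangial markers were higher in F and none lower, with medians of 0.23 and 0.52. Among all genes 25% were higher in F. Pecam1 had a log2 fold change of 0.30 and the small proteoglycan gene Lum one of 1.66. By edgeR none of 11 macrophage, 8 T cell or 8 adipocyte markers was called, while over the alternative settings up to 2 macrophage and up to 2 adipocyte markers were called higher. The call in the B and plasma cell list was Xbp1, lower in F (log2 fold change -0.28), in the erythroid list Slc4a1, shared with intercalated cells, and in the urothelium list Krt20 (log2 fold change 1.28), under 1 CPM in every library of both sexes. Summed macrophage markers ran 219.5 to 279 CPM in F and 216 to 385 CPM in M. Summed adipocyte markers ran 35.5 to 60.5 CPM in F and 32.8 to 49.5 CPM in M. The part that cell composition plays in the differences above was not tested.

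No dependence of the sex difference on diet was called by edgeR. Called genes numbered 6511 on 10% fat and 6157 on 44% fat, 4923 were called on both, and 4922 of those had the same sign. The difference of the sex differences between 44% and 10% fat was called in 0% of genes (0 of 18195), with 510 at an unadjusted p under 0.05, fewer than the 910 that this threshold lets through by chance, and a smallest adjusted p of 0.763. DESeq2 called 1 gene, Slc7a13, named here after its value was seen, whose log2 fold change was -10.33 on 10% fat and -8.91 on 44% fat. DESeq2 put the difference, 44% minus 10% fat, at 1.42 with an adjusted p of 0.00108, and edgeR put it at 1.42 with an adjusted p of 0.763. Both limma fits called 0. Genes at an unadjusted p under 0.05 numbered 1213 by limma-voom with sample quality weights, above 910. By edgeR with C57BL/6J libraries alone they numbered 820 of 16847. Whether fewer genes than by chance pass this threshold thus depends on the setting. A diet dependence smaller than these data resolve is not shown to be absent.

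Compared with the same difference in the other strains, 681 of the 1078 genes past 2-fold (63.2%) were called with the same sign in CAST/EiJ and 824 (76.4%) in NZO/HlLtJ. With the opposite sign, 38 and 8 were called. In those strains 47.6% and 50% of all genes were called for sex, in either direction, which is an unlike measure. Testing the difference itself, the F against M effect of C57BL/6J differed from that of CAST/EiJ in 2422 genes (13.3%) and from that of NZO/HlLtJ in 916 (5.03%). Among the genes past 2-fold, chosen for a large effect in C57BL/6J, 413 (38.3%) differed from CAST/EiJ and 211 (19.6%) from NZO/HlLtJ. Of the 30 leading genes, 28 were called with the same sign in CAST/EiJ and 30 in NZO/HlLtJ, and 17 and 15 differed in size. The level filter behind these genes averaged all 47 libraries, so genes expressed in the other strains were favoured. Ankrd31, Serpina6, Atp13a4 and Cyp2b10 passed it through those strains. Such agreement is therefore not independent of how the genes were picked.

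**Figure D5:**
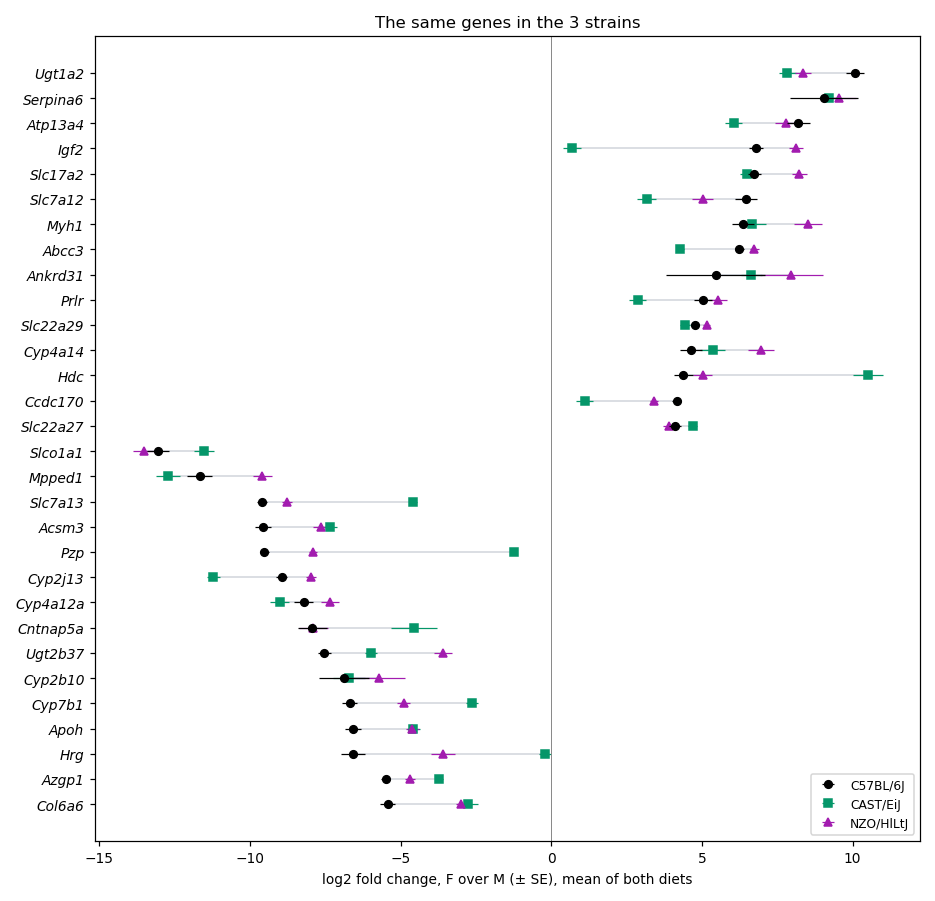
Log2 fold change, F over M, with its SE, of the 30 leading genes of C57BL/6J (black circles) beside CAST/EiJ (green squares) and NZO/HlLtJ (purple triangles). Genes were chosen in C57BL/6J, with a level filter over the libraries of all strains. Igf2, Pzp, Slc7a13 and Hrg lie far nearer 0 in CAST/EiJ, Hdc lies farther from 0 there, and Slco1a1 lies beyond -10 in each strain.

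Igf2 had a far smaller sex difference in CAST/EiJ, with log2 fold changes of 6.80 in C57BL/6J, 0.68 in CAST/EiJ and 8.12 in NZO/HlLtJ (adjusted p of the difference 1.1e-13 and 0.00872). Pzp had -9.53, -1.25 and -7.90, and Slc7a13 -9.62, -4.60 and -8.77, in the same order. Hdc went the other way, at 4.38 in C57BL/6J against 10.50 in CAST/EiJ. The strain difference with the smallest p-value, against both strains, was in Akr1c21, a hydroxysteroid dehydrogenase gene, at -0.91 in C57BL/6J, -10.82 in CAST/EiJ and -6.40 in NZO/HlLtJ (adjusted p of the difference 4.4e-32 and 9.6e-27). In C57BL/6J it lay at 481 to 649.6 CPM (median 563) in F and 739 to 1217 CPM (median 1048) in M, a smaller sex difference than in the other two strains. Aldh1a1 changed sign, higher in F in C57BL/6J (1.23) and lower in F in CAST/EiJ (-2.59) and NZO/HlLtJ (-1.68). Ugt3a2 was lower in F in C57BL/6J (-0.78) and higher in CAST/EiJ (1.04). Elovl2, a fatty acid elongase, had 2.19 in C57BL/6J, 0.23 in CAST/EiJ and -0.01 in NZO/HlLtJ. The strains share no library, but they share the fit and its estimate of the spread.

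The lists can be set beside each other for the strain difference, as counts without a test between lists. The sex effect of C57BL/6J differed from that of CAST/EiJ in 13 of 17 UGT, 10 of 16 aldo-keto reductase, 15 of 27 aldehyde and alcohol dehydrogenase, 10 of 46 P450 and 88 of 325 SLC and SLCO genes, against 13.3% of all genes. Against NZO/HlLtJ the counts were 12, 10, 7, 6 and 37, against 5.03%. Podocyte markers differed in 0 of 8 against both strains, and intercalated cell markers in 0 and 1 of 10. With so few genes, these counts cannot be told from the shares of all genes. Other segment lists ran from 0 of 6 S2 to 5 of 8 S3 markers against CAST/EiJ. Against NZO/HlLtJ they ran from 0 of 8 thin limb to 5 of 10 thick ascending limb markers. Median sex effects of podocyte and intercalated cell markers were 0.50 and 0.42 in C57BL/6J, 0.53 and 0.40 in CAST/EiJ, and 0.65 and 0.63 in NZO/HlLtJ. The P-glycoprotein, MRP3 and MRP4 genes were mixed. Abcc4 had 1.88 in C57BL/6J and 0.04 in CAST/EiJ (adjusted p of the difference 1.6e-08), while for Abcb1b, at 2.31 and 1.71, the difference was not called (adjusted p 0.135). The OAT genes Slc22a6 and Slc22a8 had -1.34 and 0.99 in C57BL/6J, -1.21 and 1.18 in CAST/EiJ, and -1.43 and 1.33 in NZO/HlLtJ, opposite in direction in each strain.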

How the data were processed

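Polyadenylated RNA was sequenced as 100 bp paired-end reads, per the labels' protocols. The authors deposited expected counts per gene, not normalized, and variance-stabilized log2 values of the same libraries. GRCm38 and DESeq2 are named in the submitters' processing notes, and the aligner, counting tool and strand setting are not given in the sources used here. Expected counts were rounded. Of 22474 genes, 18786 passed edgeR's filterByExpr. All 47 libraries were fitted with 12 group means (strain, sex and diet) and an additive term for the ID series, TMM scaling and edgeR 4.0.16's robust quasi-likelihood F test (R 4.3.3), with 33 residual degrees of freedom. P-values were adjusted by Benjamini-Hochberg over all 18786 genes. The 591 genes off the autosomes were not counted. Alternatives used DESeq2 1.42.0, limma 3.58.1 and subsets of libraries.

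Members, gene lists and tests were chosen with earlier results of these data known. Genes named are the 15 highest and 15 lowest log2 fold changes among called genes, leaving out provisional symbols (Gm, Rik and the like), members of the lists, and up to 10 genes with the smallest p for each strain difference, and any others are said to be chosen after their values were seen. The fitting step was tested on simulated data. Promoter sequences are from RefSeq (GRCm38.p6), and shared 31-base words were counted over GENCODE M21 transcripts. Slc22a13 shared 41.5% of its words with other genes, Myh1 37.9%, Cyp2d9 34.8% and Odc1 31.3%, so counts of these genes could be split too. Intervals cover counting error only.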

Additional observations from a re-analysis of the deposited data

Results flagged for a closer look

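The genes shown in the plot of leading genes and the summed marker lists were examined for a library far from the other 7 of its sex, by Dixon's gap ratio at its 95% critical value, which chance exceeds in about 1 of 20 groups. Several of these values came from the 2 libraries that stood apart in many genes. Replicate 1 of F on 44% fat had the lowest F value of Atp13a4 (1.68 CPM), Igf2 (49.8 CPM) and Myh1 (3.69 CPM). Replicate 3 of M on 44% fat had the highest M value of Slco1a1 (1395 CPM), Cyp4a12a (663 CPM), Cyp2b10 (7.7 CPM) and Hrg (21.7 CPM), and also of the summed macrophage markers (384.7 CPM, next 282.9 CPM) and T cell markers (7.975 CPM, next 5.391 CPM). Without both libraries the log2 fold changes were 7.01 for Igf2, 8.14 for Atp13a4, 6.59 for Myh1, -12.82 for Slco1a1, -7.98 for Cyp4a12a, -6.50 for Cyp2b10 and -6.48 for Hrg, each still called. Other isolated values were the highest F value of Ankrd31 (0.696 CPM, replicate 3 on 10% fat) and of Slco1a1 (0.361 CPM, replicate 3 on 44% fat), and the highest M value of Col6a6 (33.3 CPM, replicate 2 on 10% fat). Among summed markers in F, S3 markers were highest in replicate 4 on 44% fat (3141 CPM), principal cell markers were highest in replicate 1 on 10% fat (666.4 CPM), and replicate 2 on 10% fat was lowest for endothelial (607.9 CPM) and for fibroblast and mesangial markers (288.6 CPM).

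Of the leading genes, those below had a sex difference in C57BL/6J that differed from another strain by edgeR's test of the difference itself, adjusted over all genes. Each value is the log2 difference F minus M in C57BL/6J less that of the other strain. Since genes were chosen for a large difference in C57BL/6J, values of the same sign as the difference itself are favoured. Among genes higher in F and against CAST/EiJ, it was 6.12 for Igf2, 3.31 for Slc7a12, 3.06 for Ccdc170, 2.23 for Ugt1a2, 2.17 for Prlr, 1.98 for Abcc3 and -6.12 for Hdc, so that Hdc alone of these had a larger difference in CAST/EiJ. Against NZO/HlLtJ it was 1.71 for Ugt1a2, 1.45 for Slc7a12, 0.75 for Ccdc170, -1.32 for Igf2 and -2.32 for Cyp4a14.

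Among genes lower in F and against CAST/EiJ, the value was -8.28 for Pzp, -6.37 for Hrg, -5.01 for Slc7a13, -4.08 for Cyp7b1, -2.68 for Col6a6, -2.22 for Acsm3, -2.003 for Apoh, -1.78 for Azgp1, -1.54 for Ugt2b37 and 2.28 for Cyp2j13, the last being the gene with the larger difference in CAST/EiJ. Against NZO/HlLtJ the value was -3.95 for Ugt2b37, -2.99 for Hrg, -2.43 for Col6a6, -1.98 for Apoh, -1.91 for Acsm3, -1.79 for Cyp7b1, -1.63 for Pzp, -0.96 for Cyp2j13, -0.85 for Slc7a13 and -0.81 for Azgp1, all in the direction of a larger difference in C57BL/6J.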

How the results depend on the processing

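The sex difference was recomputed under 29 alternatives. Within ID series 77, 81 and 89, with fewer libraries each, 2830, 4544 and 5129 genes were called, 1277, 2122 and 2591 higher and 1553, 2422 and 2538 lower in F. Leaving out each library in turn gave 8204 to 8536 calls, 4260 to 4467 higher and 3944 to 4069 lower in F, with 2117 to 2447 differences from CAST/EiJ and 792 to 921 from NZO/HlLtJ. The difference between diets had 0 to 1 call, the 1 being Mmp12 without replicate 1 of M on 44% fat (-2.14, adjusted p 0.0477 by edgeR, against -1.85 and 0.763 with it), and DESeq2 called 1, Slc7a13. The split of higher against lower calls was 4274 to 4356 with no expression filter, 4430 to 4283 with DESeq2 size factors and 4541 to 4559 with C57BL/6J libraries alone, so the excess of genes higher in F depends on these settings.

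Of 5044 recomputed log2 fold changes of 174 named genes, 4942 kept sign and call, 83 lost the call, 16 gained it and 3 changed sign without being called, Aqp2 (-0.0446) and Slc2a2 (-0.0249) within series 89 and Slc5a2 (-0.0014) on 10% fat alone. Sgk1 and Xbp1 lost their call without replicate 2 of M on 10% fat (0.80, adjusted p 0.0511, and -0.23, adjusted p 0.0586, by edgeR). Without that library Atp13a4 was at 9.02, and without replicate 2 of M on 44% fat Ugt1a9 was at 6.88. Their M groups held 3 and 2 counts. No paired analysis was possible because the labels give no replicate numbers. Depth limits genes near 0 in one sex, whose fold changes are bounds or depend on the fit, and the deposited log2 values compress them.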
